A study of Mus musculus with 7 samples.

Results

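The genes described here are the CCN family of secreted matrix proteins and the core of the YAP pathway, 10 genes of the 49382 in the deposited table. They were taken by gene symbol, from a set of names drawn up with earlier results of these data known. The CCN genes are Ctgf (Ccn2 in newer annotation), Cyr61 (Ccn1), Nov (Ccn3), Wisp1 (Ccn4) and Wisp2 (Ccn5). The others are the YAP targets Ankrd1, Amotl2 and Lats2 and the coactivators Yap1 and Wwtr1, the last of which encodes TAZ. Each symbol stood on 1 row, and each of the 10 genes averaged 2 TPM or more across libraries. TPM is a gene's share of all transcripts in a library, corrected for transcript length, so levels of different genes can be set side by side.

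The libraries are RNA-seq of wild type mouse embryonic fibroblasts (MEFs), primary cells grown from E13.5-E14.4 embryos and used at passages 3 to 7. All cells were plated at 100000 per well (10000 per cm2) and cultured overnight in DMEM, and RNA was taken from the cells that were still attached after treatment. There was 1 untreated control. Treatments of 10 hours were medium without glucose, medium without glutamine, 0.1% oxygen (hypoxia) and 1 μM thapsigargin (ER stress). Treatments of 3 hours were 10 μM sodium arsenite (oxidative stress) and 100 mM NaCl added to the medium (osmotic stress). Thapsigargin blocks the calcium pump of the endoplasmic reticulum (ER), and arsenite reacts with protein thiols. Each condition had 1 library, so there is no spread between replicates, no p-value is given, and no neighbours in an order of levels can be said to differ. The 3 hour and 10 hour conditions share the same control library, and condition and treatment time cannot be told apart between them.

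The Hippo pathway is a kinase cascade in which LATS kinases phosphorylate YAP1 and TAZ and keep them out of the nucleus. When the cascade is off, as in sparse or spread cells on a stiff matrix, YAP1 and TAZ enter the nucleus and act through the DNA-binding TEAD factors. Ctgf, Cyr61 and Ankrd1 are their best known targets, and Amotl2 and Lats2 are targets that encode inhibitors of YAP itself. In fibroblasts Ctgf is also a target of TGF-beta, and CCN proteins bind integrins and growth factors in the matrix. Levels of Yap1 and Wwtr1 mRNA say nothing of where the proteins are, and these data hold no measure of that.

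TEAD factors bind the sequence GGAATG, read as CATTCC on the opposite strand. RefSeq promoters (GRCm38.p6, 250 bases before to 50 bases after the transcript start) were at hand for 6 of the members, Cyr61, Ankrd1, Amotl2, Lats2, Yap1 and Wwtr1, with 8 promoters in all. The motif, searched on both strands, was present in 7 of these 8 promoters and in 14.7% of all 32851 promoters of the same length. Counted by gene, a promoter of 6 of the 6 genes held it, against 16.6% of all 27025 genes. The Wwtr1 promoters overlap and hold the same site, which is counted once for each. Cyr61, Ankrd1, Amotl2 and Lats2 were known YAP targets when chosen. The higher share may follow from that choice and is not read as a result. The sites are shown because they match the letters that TEAD factors bind, and action of the pathway through these matches was not tested. Each is given 5′ to 3′ on the strand of its gene in a window of 30 bases, with the motif in capitals.
Cyr61, chr3:145650071-145650100, minus strand: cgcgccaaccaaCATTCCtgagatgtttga
Ankrd1 upstream site, chr19:36120037-36120066, minus strand: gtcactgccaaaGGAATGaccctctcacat
Ankrd1 downstream site, chr19:36119950-36119979, minus strand: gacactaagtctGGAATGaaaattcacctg
Amotl2, chr9:102717727-102717756, plus strand: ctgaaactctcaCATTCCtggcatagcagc
Yap1, chr9:8004720-8004749, minus strand: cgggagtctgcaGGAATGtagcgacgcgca
Wwtr1, chr3:57576029-57576058, minus strand: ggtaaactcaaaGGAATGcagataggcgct
Lats2, chr14:57746102-57746131, minus strand: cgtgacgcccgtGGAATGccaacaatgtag

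The motif began 103 bases before the transcript start in Cyr61, 210 and 123 bases before it in Ankrd1, 65 in Amotl2, 141 in Yap1 and 136 in Wwtr1. In Lats2 it lay just past the start. The AP-1 motif TGANTCA, held by 7.81% of all promoters, and the CArG box of the serum response factor SRF, held by 1.63%, were in none of the 8 promoters. A match is a stretch of letters and not a measured binding site. The full 250 bases before the start of Cyr61, the most abundant of these 6 genes, at chr3:145649986-145650235 on the minus strand, are shown next with the motif in capitals.
Cyr61 upstream: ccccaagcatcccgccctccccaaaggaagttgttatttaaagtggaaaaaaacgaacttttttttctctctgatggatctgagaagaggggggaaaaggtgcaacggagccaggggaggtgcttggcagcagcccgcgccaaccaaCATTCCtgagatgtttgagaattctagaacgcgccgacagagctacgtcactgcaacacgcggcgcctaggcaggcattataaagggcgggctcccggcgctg

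The 10 genes are all protein-coding on GRCm38. Ctgf lies on chromosome 10 from 24595442 to 24598683, Cyr61 on chromosome 3 from 145646976 to 145649981, Nov on chromosome 15 from 54745702 to 54754039, Wisp1 on chromosome 15 from 66891320 to 66923201 and Wisp2 on chromosome 2 from 163820861 to 163833146. Ankrd1 lies on chromosome 19 from 36111961 to 36120099, Amotl2 on chromosome 9 from 102716672 to 102733418, Lats2 on chromosome 14 from 57689662 to 57758388, Yap1 on chromosome 9 from 7931999 to 8004596 and Wwtr1 on chromosome 3 from 57455649 to 57575910. Exons of Ctgf overlap those of Gm15270 on the opposite strand, a noncoding gene that reached at most 8.61 TPM in a library. Exons of Yap1 overlap those of the opposite-strand gene Gm20416, which was at 0 TPM in all 7 libraries. Lats2 shares exon sequence with the same-strand gene Gm49361, for which no level is listed. The Lats2 value is uncertain to the extent that reads fit both.

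**Figure D1:**
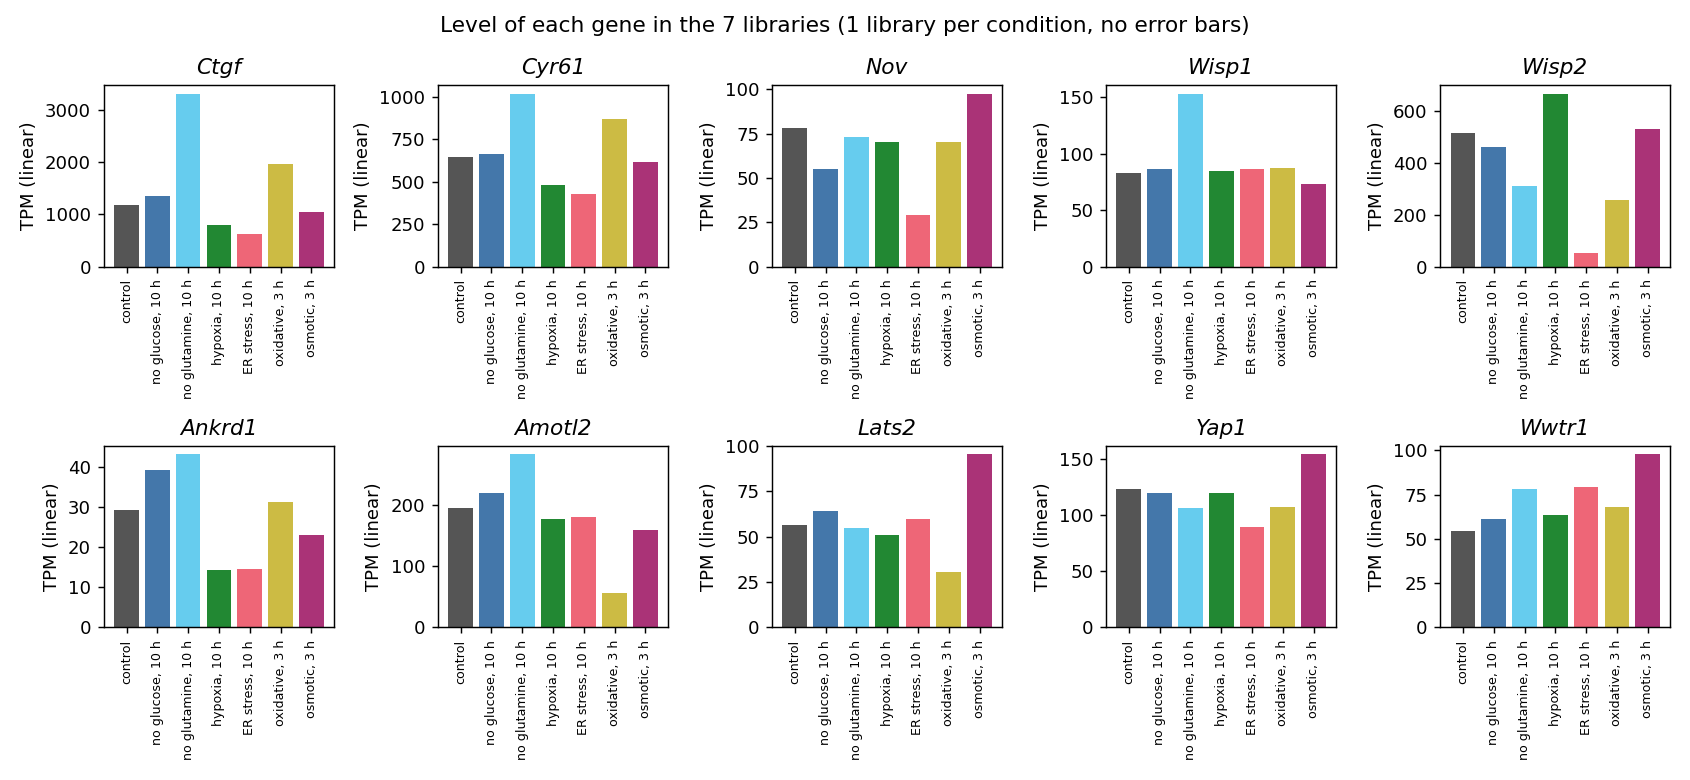
TPM on a linear axis from 0 for each of the 10 genes (panels) in the 7 libraries (bars, 1 library each, no error bars). Ctgf, Cyr61, Wisp1, Ankrd1 and Amotl2 were highest in glutamine depletion, Nov, Lats2, Yap1 and Wwtr1 in osmotic stress, and Wisp2 in hypoxia.

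Ctgf was the most abundant of the 10 genes, at 1177 TPM in control cells, and ranked 102 by mean level among the 12909 genes that averaged 2 TPM or more. It stood at 1343 TPM in glucose depletion, 3307 in glutamine depletion, 802 in hypoxia, 628 in ER stress, 1961 in oxidative stress and 1043 in osmotic stress. The highest and lowest libraries, glutamine depletion and ER stress, differed 5.27-fold. Glutamine depletion was the only condition in which Ctgf rose by more than 2-fold, with a log2(TPM + 1) change of 1.49, and 1.77% of the 12909 genes changed upwards by more. The change was 0.74 in oxidative stress and -0.91 in ER stress, both within 2-fold.

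Cyr61, whose product binds integrins on fibroblasts, followed Ctgf at a lower level and with smaller steps. It was at 646 TPM in control cells, 665 in glucose depletion, 1020 in glutamine depletion, 483 in hypoxia, 430 in ER stress, 868 in oxidative stress and 615 in osmotic stress. The order of the 7 libraries from high to low was the same for Ctgf and Cyr61. Its log2 changes ran from -0.59 in ER stress to 0.66 in glutamine depletion, so that no condition moved it past 2-fold. The ratio of Ctgf to Cyr61, in TPM, was 1.82 in control cells, 3.24 in glutamine depletion and 1.46 in ER stress.

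Wisp2, which encodes the CCN protein that lacks the C-terminal domain of the others, had the widest range of the 10 genes. Its level was 515 TPM in control cells, 460 in glucose depletion, 311 in glutamine depletion, 666 in hypoxia, 53.6 in ER stress, 258 in oxidative stress and 530 in osmotic stress. In ER stress it fell by 3.24 on the log2 scale, to a level 9.59-fold below control, and 1.06% of the 12909 genes changed downwards by more. The values in glutamine depletion and oxidative stress, the libraries where Ctgf was highest, were both below control. The log2 change was -0.72 in glutamine depletion, and the 258 TPM of oxidative stress lay just inside the 2-fold limit. Ctgf exceeded Wisp2 2.29-fold in control cells, 10.6-fold in glutamine depletion, 1.20-fold in hypoxia and 7.61-fold in oxidative stress. The ratio was highest, at 11.7, in ER stress, where Ctgf itself was at its lowest.

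Nov and Wisp1 were expressed at lower levels. Nov, known for restraining proliferation in several cell types, was at 78.1 TPM in control cells, 54.9 in glucose depletion, 73.0 in glutamine depletion, 70.2 in hypoxia, 29.2 in ER stress, 70.5 in oxidative stress and 97.5 in osmotic stress. It fell past 2-fold in ER stress, by 1.39 on the log2 scale, and its 5 other changes lay between -0.50 and 0.32. Wisp1, a WNT-induced CCN gene, was at 82.6 TPM in control cells and 153 in glutamine depletion (log2 change 0.88), and its 5 other libraries lay between 73.1 and 87.1 TPM. It was the single CCN gene of the 5 that was not lower in ER stress than in control cells, at 86.1 TPM. Wisp3, the remaining gene of the family, was listed at 0 in all libraries but glutamine depletion, where it was at 0.0854 TPM.

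Summed over the 5 CCN genes, the level was 2498 TPM in control cells, 2609 in glucose depletion, 4864 in glutamine depletion, 2105 in hypoxia, 1227 in ER stress, 3244 in oxidative stress and 2360 in osmotic stress. The make-up of the sum differed between libraries. Ctgf supplied 47.1% of it in control cells, 68.0% in glutamine depletion and 38.1% in hypoxia, and 51.2% in ER stress, where the sum was lowest. Wisp2 supplied 20.6%, 6.40%, 31.6% and 4.37% in the same libraries. Cyr61 had its highest share, 35.0%, in ER stress.

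**Figure D2:**
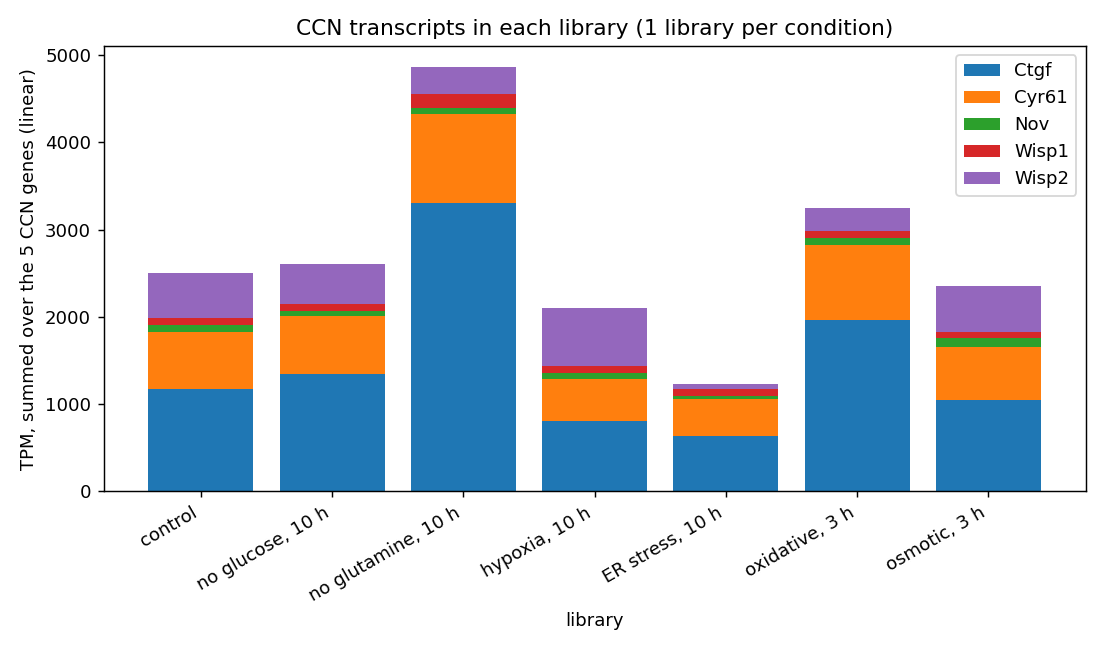
Stacked TPM of the 5 CCN genes (colours) in each of the 7 libraries on a linear axis from 0, 1 library per bar. The bar is tallest in glutamine depletion at 4864 TPM, mostly Ctgf, and shortest in ER stress at 1227 TPM, where the Wisp2 segment nearly vanishes.

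Ankrd1 encodes an ankyrin repeat protein of nucleus and sarcomere that is widely used as a readout of YAP. It was the least abundant of the 10 genes, at 29.2 TPM in control cells, 39.1 in glucose depletion, 43.1 in glutamine depletion, 14.2 in hypoxia, 14.5 in ER stress, 31.2 in oxidative stress and 22.9 in osmotic stress. The hypoxia and ER stress libraries were the lowest, 2.05-fold and 2.02-fold below control in TPM. On the log2(TPM + 1) scale these were changes of -0.99 and -0.97, just inside 2-fold. Its 7 levels thus shared with Ctgf and Cyr61 a top in glutamine depletion and the lowest places in hypoxia and ER stress. Desmin (Des), a muscle gene, was also low in ER stress, at 13.6 TPM against 35.7 in control cells, and at 30.0 TPM in hypoxia (log2 change -0.24). Tnnt2, the other muscle marker above 2 TPM on average, differed from it, with changes of 0.27 in ER stress and -0.78 in hypoxia. The muscle regulators Myod1 and Myog were at most at 0.107 and 0.260 TPM in a library. The part of muscle-like cells in the Ankrd1 values was not tested, and in bulk RNA fewer cells of a type and less RNA per cell cannot be told apart.

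Amotl2 encodes angiomotin-like 2, a junction protein that holds YAP in the cytoplasm. It was at 195 TPM in control cells, 220 in glucose depletion, 283 in glutamine depletion, 177 in hypoxia, 180 in ER stress, 56.6 in oxidative stress and 160 in osmotic stress. The oxidative stress library stood apart below the rest, 3.45-fold under control. The log2 change of -1.77 there was the largest fall of the 10 genes in that condition, and 1.40% of the 12909 genes changed downwards by more. Ctgf and Cyr61 were above control in the same library, so these YAP targets differed in direction there. In glutamine depletion Ctgf, Cyr61, Ankrd1 and Amotl2 were all above control. Lats2, the remaining YAP target named above, was not, at -0.03 in glutamine depletion, and was at -0.87 in oxidative stress.

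Lats2, the kinase that phosphorylates YAP1 and TAZ, was at 56.4 TPM in control cells, 64.2 in glucose depletion, 55.1 in glutamine depletion, 50.8 in hypoxia, 59.6 in ER stress, 30.5 in oxidative stress and 95.5 in osmotic stress. The 3 hour treatments gave its lowest and its highest level, 3.13-fold apart, with log2 changes of -0.87 for arsenite and 0.75 for NaCl. In the other 4 conditions its changes lay between -0.15 and 0.18.

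Yap1 had the narrowest range of the 10 genes, 1.73-fold from lowest to highest. It was at 123 TPM in control cells, 120 in glucose depletion, 106 in glutamine depletion, 120 in hypoxia, 89.2 in ER stress, 107 in oxidative stress and 154 in osmotic stress. Wwtr1 was at 54.7 TPM in control cells, 61.4 in glucose depletion, 78.4 in glutamine depletion, 63.3 in hypoxia, 79.6 in ER stress, 68.3 in oxidative stress and 97.8 in osmotic stress. The control library was the lowest of the 7 for Wwtr1, and lay at -0.41 on the log2 scale against the median of the other 6, so all 6 of its changes were positive. Yap1 exceeded Wwtr1 2.24-fold in control cells and 1.12-fold in ER stress. Their sum lay between 169 and 184 TPM in 6 libraries and was 252 TPM in osmotic stress.

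**Figure D3:**
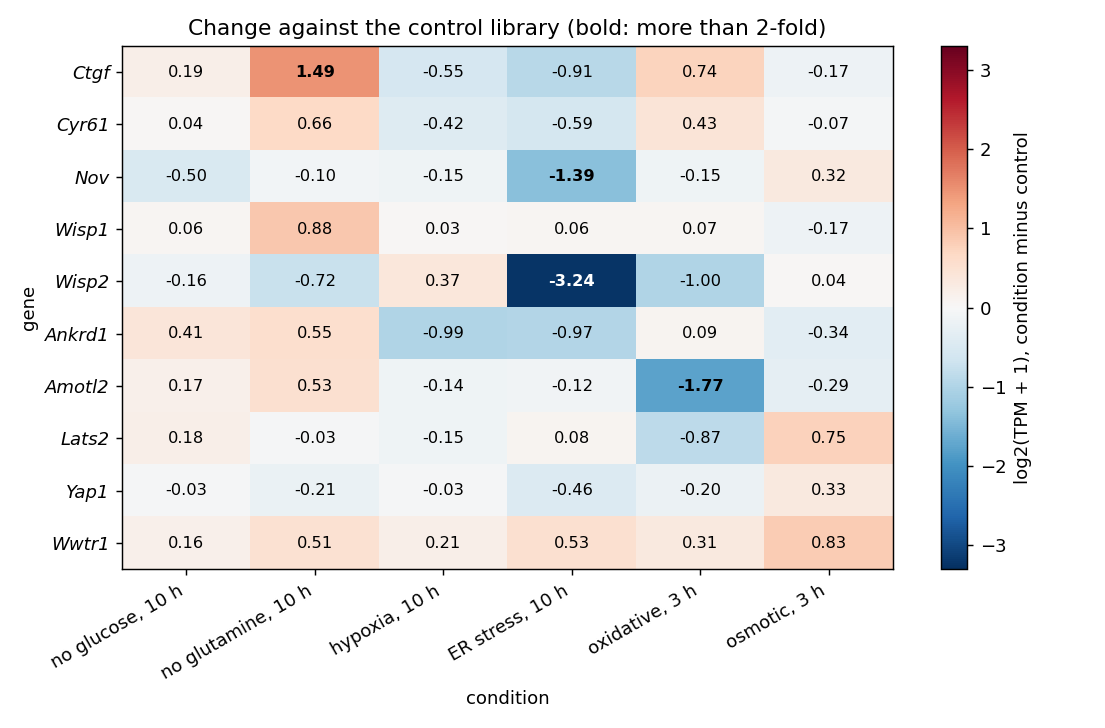
Log2(TPM + 1) of each condition minus the control library for the 10 genes (rows) and 6 conditions (columns), with values over 2-fold in bold. The bold values are Ctgf in glutamine depletion at 1.49, Nov and Wisp2 in ER stress at -1.39 and -3.24, and Amotl2 in oxidative stress at -1.77.

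Of the 60 changes (10 genes in 6 conditions), 4 passed 2-fold, 1 upwards and 3 downwards. For comparison, the share of all 12909 genes past 2-fold is given beside each count. In glutamine depletion 1 of the 10 genes rose and 0 fell, against 3.21% up and 3.21% down of all genes. In ER stress 0 rose and 2 fell, against 8.60% up and 11.0% down. In oxidative stress 0 rose and 1 fell, against 3.94% up and 4.85% down. None passed 2-fold in glucose depletion (1.83% up and 2.41% down of all genes), hypoxia (3.57% up and 2.64% down) or osmotic stress (3.08% up and 8.76% down). With so few genes, nothing is called particular to them from these counts.

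The median change of the 10 genes was 0.52 in glutamine depletion, where 6 were above control, against -0.09 over all genes. In ER stress it was -0.52, with 7 below control, against 0.00. In hypoxia it was -0.15 against -0.05, with 7 below control. The medians were 0.11 against -0.02 in glucose depletion, -0.04 against -0.16 in oxidative stress and -0.01 against -0.12 in osmotic stress. The last values for all genes mean that a gene at 0 in oxidative or osmotic stress stood 0.16 or 0.12 above the middle of the table. Relative to that middle Ctgf was at 0.89 in oxidative stress and Wwtr1 at 0.95 in osmotic stress. The 3 changes nearest inside the 2-fold limit were Wisp2 in oxidative stress and Ankrd1 in hypoxia and ER stress.

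**Figure D4:**
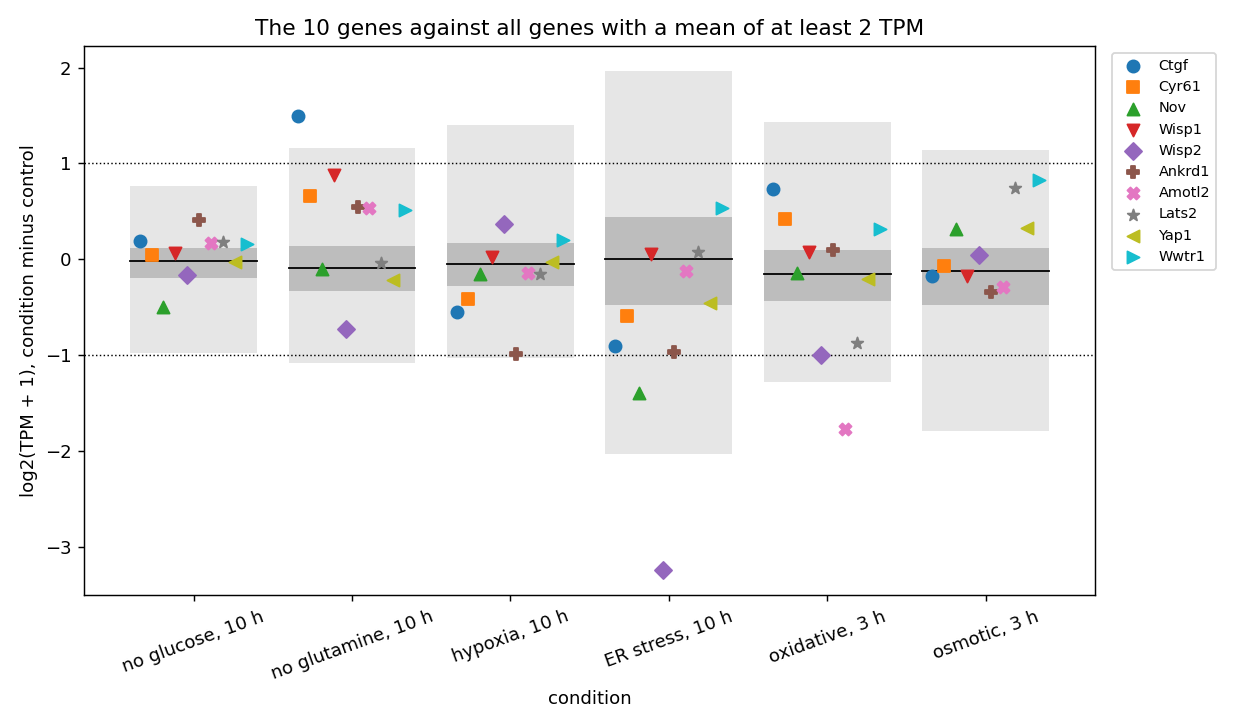
Log2(TPM + 1) changes of the 10 genes (symbols) in each condition over the central 95% (light band), central 50% (dark band) and median (line) of the 12909 genes averaging 2 TPM or more, with dotted lines at 2-fold. Ctgf in glutamine depletion (1.49), Wisp2 in ER stress (-3.24) and Amotl2 in oxidative stress (-1.77) lie outside the light bands.

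The rest of the Hippo pathway was read from a list of 24 genes, all expressed. These are upstream kinases and adaptors, junction proteins, and the TEAD and VGLL factors that YAP works with or against. In glutamine depletion 1 of 24 rose past 2-fold and 0 fell, against 3.21% up and 3.21% down of all genes. The gene that rose past 2-fold was Frmd6, an upstream activator of the cascade, from 52.8 to 110 TPM. In oxidative stress 0 rose and 2 fell past 2-fold, against 3.94% up and 4.85% down. Ajuba, which binds and restrains LATS kinases, went from 40.6 to 10.8 TPM (log2 change -1.82), and Vgll4, which competes with YAP for TEAD, from 25.6 to 12.2 TPM (-1.01). Vgll4 was the single gene of the list past 2-fold in osmotic stress, up to 56.2 TPM (1.11), against 3.08% up and 8.76% down. None of the 24 passed 2-fold in glucose depletion (1.83% up and 2.41% down of all genes), hypoxia (3.57% and 2.64%) or ER stress (8.60% and 11.0%). Nothing is read from these counts. The TEAD genes, which encode the DNA-binding partners, changed by between -0.69 and 0.30 in all 6 conditions, with Tead1 the most abundant at 83.6 TPM in control cells.

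A further list held 17 other YAP and TAZ targets, all expressed, and its genes did not move as a block. In glutamine depletion 2 of 17 rose past 2-fold and 0 fell, against 3.21% up and 3.21% down of all genes. Gadd45a was at 1.52 and Nuak2 at 1.02 on the log2 scale, and the list median was 0.28. In ER stress 2 rose and 2 fell, which is 2 of 17 each way beside the 8.60% up and 11.0% down of all genes, and nothing is read from the count. Gadd45a, better known as a DNA damage and stress response gene, went from 30.3 to 286 TPM (3.20) and Nt5e, which makes adenosine outside the cell, from 7.79 to 33.0 TPM (1.95). Tgfb2, a TGF-beta ligand, went from 23.1 to 6.73 TPM (-1.64), and the matrix gene Ccdc80 from 778 to 335 TPM (-1.21). Gadd45a alone passed 2-fold in oxidative stress (1.47), against 3.94% up and 4.85% down of all genes. In osmotic stress Foxf2 alone did (1.40), against 3.08% up and 8.76% down. No gene of the list passed 2-fold in glucose depletion (1.83% up and 2.41% down of all genes) or hypoxia (3.57% and 2.64%). Nothing is read from these counts either. Nuak2, a kinase that acts on myosin, was at 38.1 TPM in glutamine depletion and 9.02 in oxidative stress against 18.3 in control cells.

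The study names Nppb and Bdnf among YAP targets that follow cell density. Nppb, a natriuretic peptide gene, was at 6.68 TPM in control cells, 7.82 in glucose depletion, 16.6 in glutamine depletion, 2.50 in hypoxia, 2.02 in ER stress, 37.3 in oxidative stress and 5.41 in osmotic stress. It passed 2-fold upwards in glutamine depletion (1.20) and oxidative stress (2.32) and downwards in hypoxia (-1.13) and ER stress (-1.35). Those were the directions of Ctgf and Cyr61 in the same libraries. Bdnf, a neurotrophin, passed 2-fold in osmotic stress alone, at 56.5 against 25.0 TPM. It shared the direction of Ctgf in glutamine depletion (0.34) and hypoxia (-0.31). In ER stress (0.71) and oxidative stress (-0.17) Bdnf went the other way.

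Because Ctgf also answers to TGF-beta, 8 TGF-beta targets were listed. All 8 were above control in glutamine depletion and in oxidative stress, though Ltbp2 in oxidative stress was so by a log2 change of 0.00, at 250 against 249 TPM. The medians were 0.84 and 0.89 in these conditions against -0.09 and -0.16 over all genes. Among those that rose past 2-fold in glutamine depletion were Skil, a repressor of SMADs (1.22), and Tgif1 (1.16), and in oxidative stress Tgif1 rose (1.52). In osmotic stress 2 of 8 rose and 1 fell past 2-fold, against 3.08% up and 8.76% down of all genes. Skil rose there by 1.88 and Tgif1 by 1.34. In ER stress 1 of 8 rose past 2-fold, Tgif1 (1.25), and 1 fell, against 8.60% up and 11.0% down. The list median in ER stress was -0.23, with 4 of the 8 above control. In hypoxia 7 of the 8 were above control. Bhlhe40 was the single gene past 2-fold upwards there (1.07), against 3.57% up of all genes. In glucose depletion none passed 2-fold, against 1.83% up and 2.41% down of all genes. The part of TGF-beta in the Ctgf values was not tested, and nothing is read from these counts.

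YAP responds to actin tension, and 10 actin and SRF target genes were read beside it. In ER stress 0 of 10 rose and 5 fell past 2-fold, against 8.60% up and 11.0% down of all genes. All 10 were below control, with a median of -1.07. Myl9, a myosin light chain, went from 1020 to 205 TPM, the tropomyosin gene Tpm1 from 3034 to 672 TPM and the vinculin gene Vcl from 314 to 89.6 TPM. No gene of this list passed 2-fold in the other 5 conditions, for which the shares of all genes are given above. In glutamine depletion, where Ctgf was highest, the list median was 0.04, with 7 of the 10 above control. The changes there ran from -0.23 for Myl9 to 0.81 for Srf, with Vcl at 0.72. The part of actin tension in the Ctgf values was not tested.

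In ER stress the fibroblast markers were low as well. All 10 were below control, with a median change of -0.86. Of these, 3 fell past 2-fold, Lum (-2.33), Col3a1 (-2.07) and Pdgfrb (-1.15), against 11.0% down of all genes. The summed level of the 10 markers was 6764 TPM against 12427 in control cells and 14001 in hypoxia, the highest library. The part of this shift in the ER stress values of the CCN genes was not tested. Markers of other cells were low throughout. The 6 macrophage markers summed to between 6.53 and 13.7 TPM, mostly Cd68, with Adgre1 at 0.110 TPM or less and Ptprc at 0.280 or less. Csf1r and Itgam were highest in osmotic stress, at 2.25 and 1.99 TPM. The 4 endothelial markers summed to between 2.94 and 7.31 TPM, the 4 epithelial markers to between 3.87 and 11.6 TPM and the 5 muscle markers, mostly Des, to between 20.9 and 42.3 TPM. The paper's methods describe sorting MEFs to exclude macrophages, so low macrophage markers say little about the label. The other markers fit the label of fibroblasts.

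**Figure D5:**
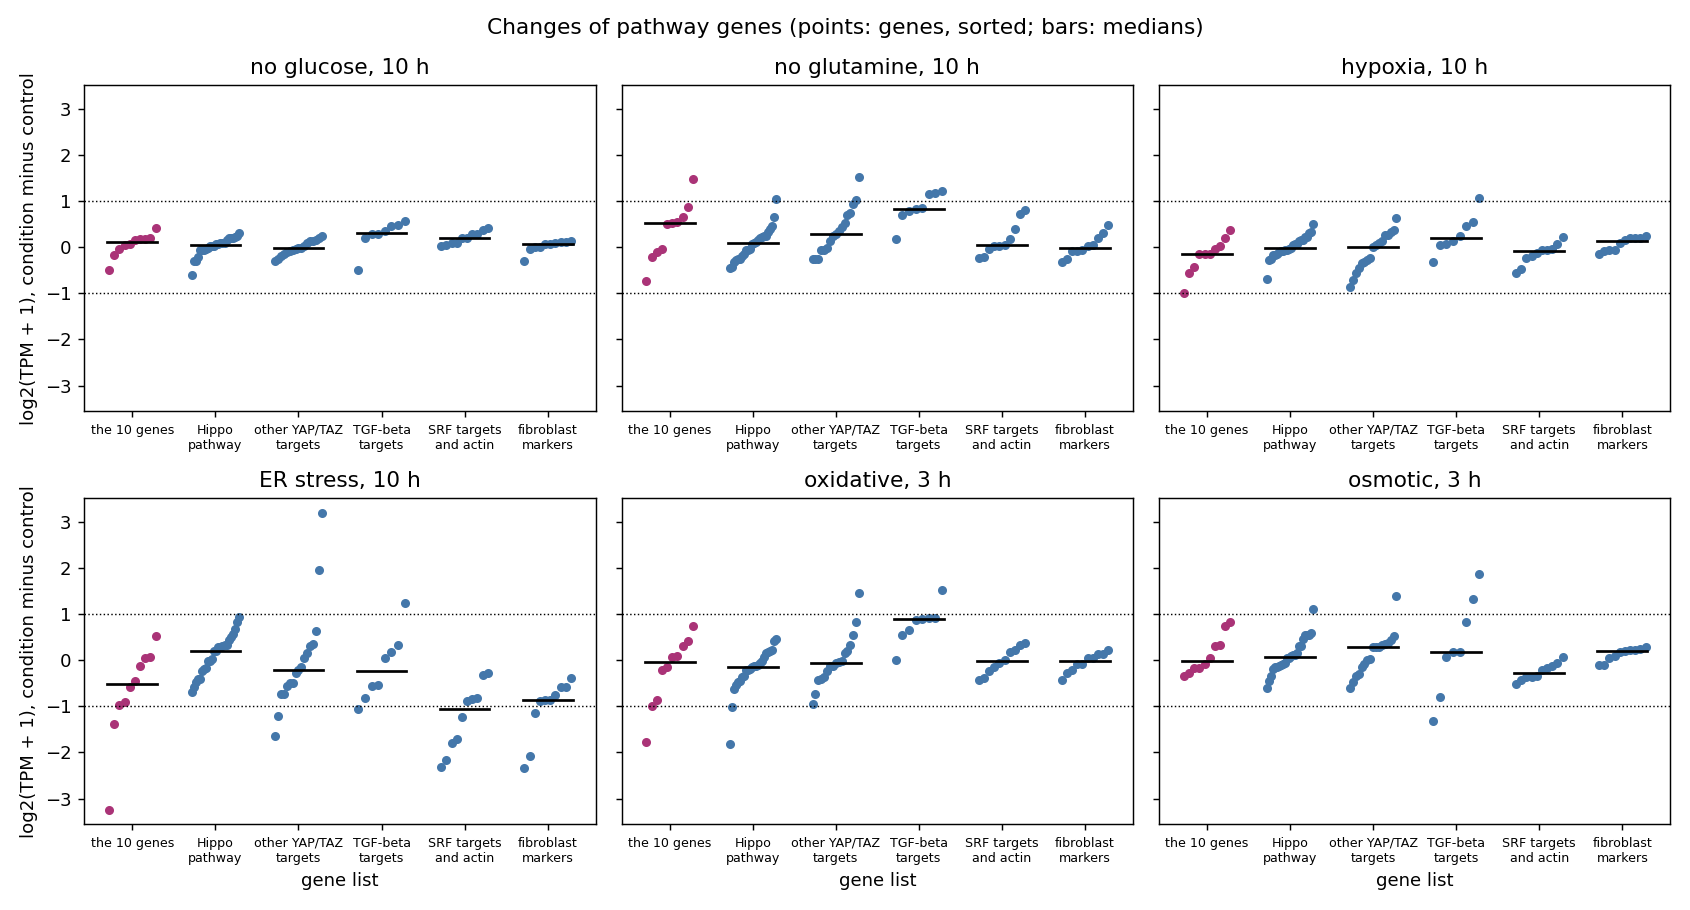
Log2(TPM + 1) changes against control in each condition (panels) for the 10 genes (purple) and the genes of 5 lists (blue), as sorted points with a bar at the median and dotted lines at 2-fold. In ER stress the SRF targets and actin genes have a median of -1.07 and the fibroblast markers of -0.86, and in glutamine depletion all 8 TGF-beta targets lie above 0.

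The genes with the most similar pattern were found by the root mean square difference of log2 changes over the 6 conditions, among genes averaging 10 TPM or more. For Ctgf these were Mical2 (difference 0.15), Ank (0.24) and Spsb1 (0.26), and Mical2, an enzyme that oxidises actin, had changes of 1.32 in glutamine depletion, 0.88 in oxidative stress and -1.02 in ER stress. For Cyr61 they were Ankrd28 (0.11), Gpd2 (0.14) and mt-Cytb (0.14), for Wisp2 St3gal5 (0.24), Mrgprf (0.26) and Kazald1 (0.27), and for Amotl2 Aarsd1 (0.27), Hist1h4i (0.37) and Triqk (0.41). For Nov they were Snurf (0.12), Fuca2 (0.12) and C1ra (0.14), for Wisp1 Gpatch8 (0.10), Spred1 (0.14) and Gas7 (0.15), and for Ankrd1 3300005D01Rik (0.27), Mgat5 (0.27) and Prkar2a (0.28). Lats2 was nearest to Traf4 (0.20), Twist1 (0.22) and Usp48 (0.22), Yap1 to Wsb2 and Gulp1 (0.08 each) and Wwtr1 to Btbd7 (0.08), Arid4b (0.09) and Klhl2 (0.11). Among the 10 genes themselves the closest were Cyr61 with Ankrd1 and Cyr61 with Wisp1 (both 0.36), Ctgf with Cyr61 (0.40) and Lats2 with Yap1 (0.41). All patterns share the 1 control library, and near genes of small change are near many others.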

How the data were processed

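Libraries were made with a stranded mRNA kit and read as pairs of 76 bases. Per the paper's methods and the submitters' processing notes, the authors aligned the reads with kallisto 0.43.1 at default settings to the GRCm38 cDNA of Ensembl release 90 and deposited 1 TPM value per gene, the sum of its transcripts, with a total of 1000000 in every library. TPM hold no read counts, so the depth is unknown and no counting interval can be given. Default settings do not use strand, so overlapping opposite-strand exons cannot be separated.

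Deposited values were put on a log2(TPM + 1) scale, and each condition was set against the control library. Changes over 2-fold were counted, with all genes meaning the 12909 of 49382 with a mean of at least 2 TPM. No test was run, since each condition has 1 library. Members and lists were chosen with earlier results of these data known. Named genes were the 10 members, up to 3 genes past 2-fold with the largest changes per list and condition, and the 3 genes nearest in pattern to each member. Ccdc80, Ltbp2, Srf, the Tead genes, Des, Tnnt2, Myod1, Myog, the other markers named and values of named genes in further libraries were added after their values were seen. Protein sequences were not used here, and a few genes that these rules would name are not reported here. Gene locations are from GENCODE M21 on GRCm38. The alternatives were pseudocounts of 0.1 and 5 TPM, other filters (none or a mean of 10 TPM), thresholds of 1.5-fold and 3-fold, centring on the median, removal of mitochondrially encoded genes, and the median of the other 6 libraries as reference. The steps were tested on simulated data. Tables were handled in pandas 2.3.3 with numpy 2.4.6 under Python 3.11.15, and plots drawn with matplotlib 3.10.9.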

Additional observations from a re-analysis of the deposited data

How the results depend on the processing

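Of 300 recomputed changes of single genes, 295 stayed on their side of 2-fold and none changed sign among the 4 past it. Ctgf in ER stress, against the median of the other libraries, and Ankrd1 in hypoxia (-1.03) and ER stress (-1.01), each with a pseudocount of 0.1 TPM or that median, passed it.

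Against the median of the other libraries 1 of the 10 genes fell in hypoxia and 4 in ER stress, and with a pseudocount of 0.1 TPM 1 fell in hypoxia. At 1.5-fold 3 rose and 1 fell in glutamine depletion, 1 fell in hypoxia, 5 fell in ER stress, 1 rose and 3 fell in oxidative stress and 2 rose in osmotic stress. At 3-fold 0 rose in glutamine depletion and 1 fell in ER stress. The other 96 recomputed counts stayed within 1.5 times. Since 0 of the 10 genes left under either filter, the counts under those filters could not change and say nothing of robustness.

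The shares of all genes past 2-fold moved more, and the cause was not tested. Without a filter they were 1.10% up and 1.35% down in glucose depletion, 1.46% and 1.49% in glutamine depletion, 1.74% and 1.36% in hypoxia, 3.45% and 3.76% in ER stress, 1.87% and 3.09% in osmotic stress and 1.85% and 2.03% in oxidative stress. At a mean of at least 10 TPM they were 0.748% and 1.04% in glucose depletion, 2.00% and 1.49% in hypoxia, 1.79% and 4.92% in osmotic stress, and 1.61% down in glutamine depletion and 2.83% down in oxidative stress. With a pseudocount of 5 TPM they were 1.08% and 1.53% in glucose depletion, 1.93% and 1.42% in glutamine depletion, 2.33% and 1.55% in hypoxia, 1.90% and 3.27% in osmotic stress, 2.62% and 1.87% in oxidative stress, and 6.03% down in ER stress.

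No paired analysis was possible because each condition has 1 library and the labels number no replicates. Depth is unknown, so counting error could not be given for any value.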
